A study of Mus musculus with 8 samples.

Results

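The genes described here encode molecular chaperones of the Hsp70, Hsp90, DnaJ and CCT families in mouse cortex. They were taken by gene symbol alone, as every row named for an Hspa gene, for Hsp90aa1, Hsp90ab1 or Hsp90b1, for a numbered Dnaja, Dnajb or Dnajc gene, or for a numbered Cct gene. The rule found 67 of the 24060 rows in the files: 13 Hsp70 genes, 3 Hsp90 genes, 43 DnaJ genes and 8 CCT genes. RNA came from the cortex of 4 mice of postnatal day 80, male and female, whose genotype is given as Aldh1l1-creERT2 hemi; Ribotag het. Ribotag is a Cre-dependent allele of the ribosomal protein gene Rpl22 that adds a hemagglutinin (HA) tag to ribosomes, and the Cre is driven by regulatory sequence of the astrocyte gene Aldh1l1. Each animal, numbered 579, 580, 581 or 595, gave 2 libraries, input from the cleared lysate of its cortex and HA IP from the RNA of ribosomes precipitated by their tag. Both groups therefore carry the same alleles, and the input holds RNA of every cortical cell type, astrocytes included. The sources used here do not give the dose and timing of Cre induction.

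Hsp70 proteins bind exposed stretches of unfolded proteins and let go of them in a cycle driven by ATP. J proteins, encoded by the DnaJ genes, bring clients to Hsp70 and trigger ATP hydrolysis, and nucleotide exchange factors reset the cycle. Hsp90 acts later, on kinases, hormone receptors and other nearly folded clients, and CCT is a ring of related subunits that folds actin and tubulin. Cells keep separate sets of these proteins in the cytosol, the endoplasmic reticulum (ER) and the mitochondria.

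The libraries held 33834388 to 53625125 fragments. All 10 astrocyte markers examined passed as higher in HA IP, with log2 fold changes of 2.95 to 5.09, and all 10 neuronal markers passed as lower, with -4.43 to -2.36. The summed level of the astrocyte markers was 662 to 716 in input and 15350 to 17300 in HA IP, and that of the neuronal markers was 1738 to 1910 and 122 to 149, as scaled FPKM. All 8 oligodendrocyte and all 8 microglia markers were lower, as were all 4 oligodendrocyte precursor markers, 7 of 8 endothelial markers and 3 of 6 mural markers, with 1 mural marker, Pdgfrb, higher. No marker list was at 0 in HA IP. These shifts in cell type moved with every result below, and their part in the chaperone results was not tested. HA IP holds RNA of tagged ribosomes and input holds RNA of the whole lysate. Differences between cell types and differences in binding to ribosomes therefore cannot be told apart here.

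Levels are given as scaled FPKM, which are the deposited FPKM divided by 1 factor per library from the trimmed mean of M-values (TMM) method. The factors were 1.33 to 1.35 in input and 0.728 to 0.767 in HA IP, and dividing by them added 0.83 to each log2 fold change of HA IP over input. On the deposited scale the median gene stood at -0.75, and after scaling at 0.00. Fold changes and calls are after scaling, and the deposited-scale value is given for each gene whose call depends on it. Lengths behind the FPKM were often not those of single transcripts, so levels of different genes are compared only within CCT.

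Of the 67 chaperone genes, 62 had enough fragments to be tested, and more of them were higher than lower in HA IP. Of the 62, 36 (58.1%) were higher, 18 (29.0%) lower and 8 not called (limma, adjusted p under 0.05), against 41.8% higher and 41.4% lower among the 15605 genes tested. All 54 called members moved in the called direction in all 4 animals, which a call on 4 against 4 libraries makes likely. The median log2 fold change of the 62 members was 0.56, against 0.00 for all genes tested. The values ran from -3.88 for Dnajc6 to 2.83 for Hspa2. The 4 HA IP and 4 input values did not overlap in 36 members with HA IP above (58.1%, against 39.9% of all genes tested) and in 14 with HA IP below (22.6%, against 38.8%).

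The split depended on the scaling. On the deposited scale 21 members (33.9%) were higher and 32 (51.6%) lower, against 23.3% and 61.6% of all genes tested. The 21 were all among the 36, and the 18 lower members were lower on both scales. Of the other 15 members called higher, 9 were not called on the deposited scale and 6 were called lower, and the 8 members not called after scaling were all lower there.

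**Figure D1:**
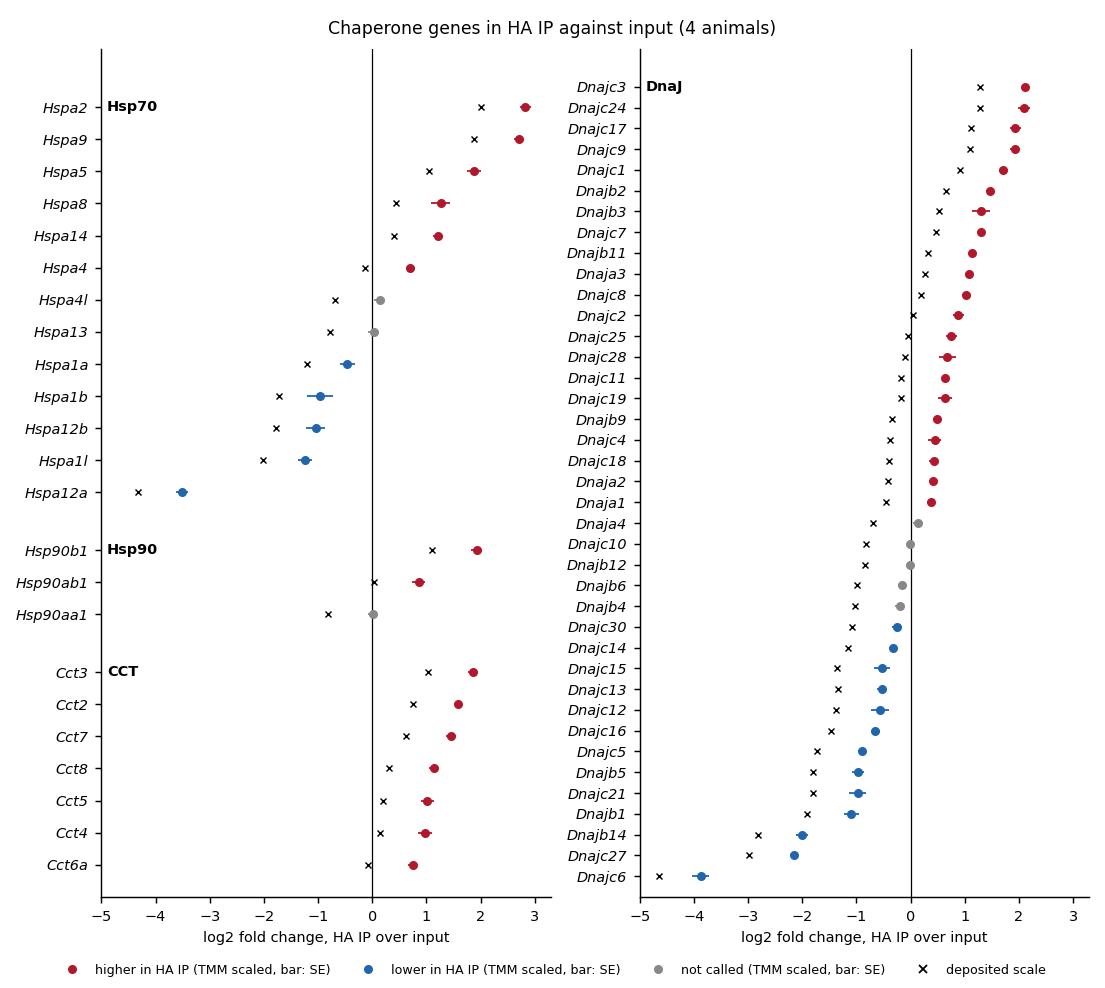
Log2 fold change of HA IP over input for the 62 tested chaperone genes, by family, after TMM scaling (coloured points, bars are SE of the limma fit on 4 animals) and on the deposited scale (crosses). All 7 CCT genes lie to the right of 0 after scaling, whereas Hsp70 and DnaJ genes spread over both sides, from Hspa2 at 2.83 to Dnajc6 at -3.88.

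Of the 13 Hsp70 genes, 6 (46.2%) were higher, 5 (38.5%) lower and 2 not called, with a median of 0.14. These shares were near the 41.8% and 41.4% of all genes tested. Among the 6 genes of the cytosol and nucleus, Hspa8, Hspa2 and Hspa14 were higher, and the neighbours Hspa1a, Hspa1b and Hspa1l were lower. Hspa8, which encodes the constitutive Hsc70, stood at 384, 437, 332 and 347 scaled FPKM in the inputs of animals 579, 580, 581 and 595, and at 977, 1168, 742 and 755 in their HA IP libraries. Every HA IP value lay above every input value, and in both groups animals 579 and 580 were the higher pair. Hspa8 had a log2 fold change of 1.26 (SE 0.17, adjusted p = 6.47e-05), with 1.12 to 1.42 in single animals. Hspa2, an Hsp70 best known from male germ cells, had the largest rise of all members. It stood at 6.11, 5.51, 4.34 and 6.03 in input and at 40.7, 38.0, 38.3 and 40.1 in HA IP. That is a 7.09-fold difference, or 2.83 on the log2 scale (SE 0.11, adjusted p = 4.97e-09), with little spread among the HA IP libraries. Hspa14, an Hsp70 that works at the ribosome with the J protein of Dnajc2, went from 4.28 ± 0.312 to 10.1 ± 0.945 (SD, n = 4 each) and had 1.21 (SE 0.09, adjusted p = 9.87e-07). Dnajc2 itself went from 14.97 ± 1.08 to 27.7 ± 3.84, a smaller change of 0.88 (SE 0.10, adjusted p = 1.80e-05), and was not called on the deposited scale (0.05).

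Hspa1a and Hspa1b, which encode the stress-inducible Hsp70, were low in all 8 libraries. Hspa1a stood at 1.06, 1.16, 1.12 and 1.08 in input and at 0.655, 0.953, 0.862 and 0.675 in HA IP. The groups did not overlap, and the log2 fold change was -0.46 (SE 0.14, adjusted p = 0.0132). Hspa1b stood at 2.09, 2.08, 1.76 and 2.33 in input and at 0.810, 0.894, 0.776 and 1.80 in HA IP. The HA IP library of animal 595 overlapped the inputs and the other 3 did not. Hspa1b had -0.96 (SE 0.24, adjusted p = 0.0038), and -1.20 without that library. Hspa1l, a neighbour of this pair that is known from testis, went from 2.89 ± 0.480 to 1.15 ± 0.0718 and had -1.24 (SE 0.14, adjusted p = 1.23e-05). Behind these values stood 49 to 216 fragments per library for Hspa1a, 75 to 467 for Hspa1b and 73 to 521 for Hspa1l.

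Hspa1a and Hspa1b are near-identical copies, so the counting could have shifted reads between them, and their separate values are uncertain. Reads that fit both copies could also have been left out of the counting, so the low levels of both genes are uncertain as well. Their RefSeq promoters (250 bases before to 50 after the start, build GRCm38.p6) had the same letter at 296 of 300 positions. The same stretch of both, from 124 to 77 bases before the start, is shown because it holds the only match of either promoter to a heat shock element of paired units, the sequence read by heat shock factors. The match is in capitals, both genes lie on the minus strand, and the stretches are chr17:34972233-34972280 for Hspa1a and chr17:34959315-34959362 for Hspa1b.
Hspa1a: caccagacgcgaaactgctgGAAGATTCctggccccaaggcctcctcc
Hspa1b: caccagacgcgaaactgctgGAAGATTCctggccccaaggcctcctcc
The motif searched was TTCNNGAA or GAANNTTC, each of which reads the same on both strands. It was found for 11 of the 54 members with a promoter in the table (20.4%), against 16.97% of all genes there, so its share was near that of other genes. Of the 11, 4 were higher, 3 lower and 4 not called. The form with 3 units (GAANNTTC followed by NNGAA, or TTCNNGAA followed by NNTTC) was found for 1 member, Dnajb6, which was not called, and for 0.662% of all genes.

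The Hsp110 genes Hspa4 and Hspa4l encode large relatives of Hsp70 that serve it as nucleotide exchange factors. Hspa4 stood at 42.1, 39.6, 44.7 and 45.9 in input and at 72.3, 72.0, 74.7 and 61.3 in HA IP. The groups did not overlap (0.70, SE 0.08, adjusted p = 2.24e-05), but on the deposited scale Hspa4 had -0.13 and was not called. Hspa4l had 0.14 (SE 0.10, adjusted p = 0.207), with overlapping groups, and was lower on the deposited scale at -0.69. It was called higher, at 0.24, without the HA IP library of animal 581. The third gene of this type, Hsph1, whose symbol lies outside the rule, was lower. It stood at 76.3, 73.6, 89.6 and 75.2 in input and at 32.7, 26.8, 30.5 and 28.3 in HA IP (-1.41, SE 0.09, adjusted p = 1.92e-07). In each animal the log2 ratio of Hspa4 exceeded that of Hsph1, by 1.83 to 2.32.

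The divergent Hsp70 genes Hspa12a and Hspa12b were both lower. Hspa12a (chr19:58795750-58943672) stood at 35.8, 34.5, 30.03 and 37.5 in input and at 2.93, 2.92, 2.43 and 3.40 in HA IP. It was 11.5-fold lower in HA IP, a log2 fold change of -3.52 (SE 0.11, adjusted p = 1.63e-09) that lay between -3.57 and -3.43 in the single animals. The median of the neuronal markers was -3.62, that of the oligodendrocyte markers -3.19 and that of the microglia markers -2.95. The RefSeq span of Hspa12a shares 9615 bases with that of Eno4. Hspa12b, known from endothelial cells, had 35 to 228 fragments per library and -1.05 (SE 0.17, adjusted p = 2.19e-04).

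**Figure D2:**
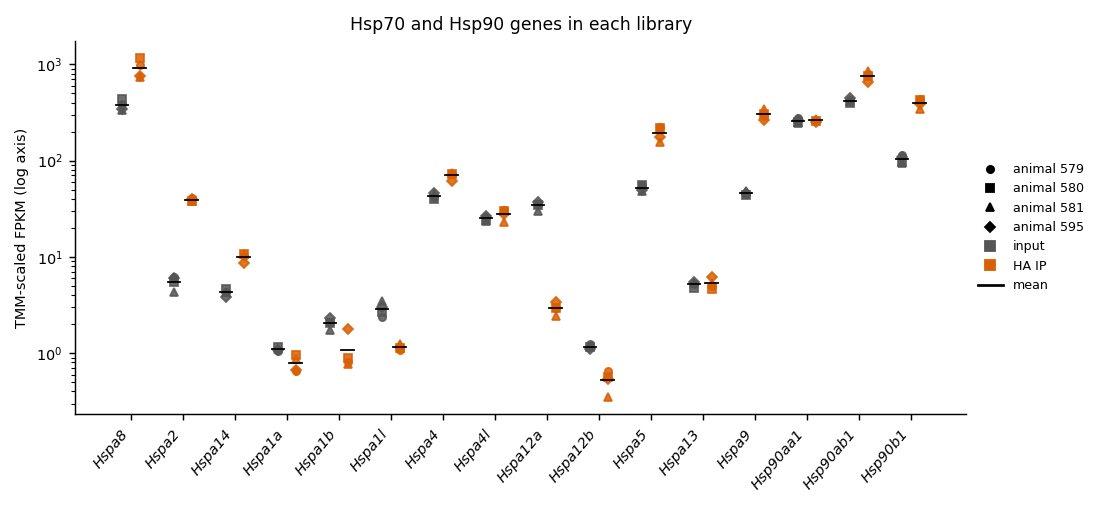
Scaled FPKM of the 13 Hsp70 and 3 Hsp90 genes in each library on a log axis, with input in grey, HA IP in orange, 1 symbol per animal and a line at the group mean. Hspa2, Hspa9, Hspa5 and Hsp90b1 sit higher in all HA IP libraries, Hspa12a lower, and Hsp90aa1 overlaps between the groups at this scaling.

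The main Hsp70 and Hsp90 of the ER were higher in HA IP by nearly the same amount. Hspa5 (chr2:34772090-34776529) encodes BiP, the Hsp70 of the ER lumen. It stood at 55.5, 55.2, 47.9 and 49.6 in input and at 223, 219.7, 157 and 174 in HA IP. All HA IP values lay above the inputs, and in both groups animals 579 and 580 were again the higher pair. Its log2 fold change was 1.88 (SE 0.12, adjusted p = 2.54e-07), and 1921 bases of its RefSeq span are shared with Rabepk. Hsp90b1 (chr10:86690841-86705444) encodes Grp94, the ER form of Hsp90. It stood at 115, 97.6, 94.9 and 109 in input and at 434, 420.4, 344 and 390.0 in HA IP (1.93, SE 0.10, adjusted p = 5.77e-08). The second ER Hsp70 gene, Hspa13, did not follow: it had 0.03 (SE 0.11, adjusted p = 0.805), and on the deposited scale it was lower at -0.78. In each animal the log2 ratio of Hspa5 exceeded that of Hspa13, by 1.64 to 2.05.

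The ER J proteins spread widely around zero. Of the 9 DnaJ genes listed for the ER, 5 (55.6%) were higher, 2 (22.2%) lower and 2 not called, with a median of 0.49. The list may not be complete. The shares of all genes tested were 41.8% higher and 41.4% lower. On the deposited scale 3 (33.3%) were higher and 5 (55.6%) lower, against 23.3% and 61.6% of all genes tested. Dnajc3, which encodes the lumenal BiP partner p58IPK, led all DnaJ genes. It stood at 10.8, 10.3, 9.72 and 11.2 in input and at 47.1, 41.1, 47.5 and 46.95 in HA IP (2.11, SE 0.07, adjusted p = 3.50e-09). Dnajc1, for the ER membrane protein ERdj1, went from 2.44 ± 0.101 to 8.26 ± 0.630 (1.71, SE 0.09, adjusted p = 4.01e-08), although its span in RefSeq overlaps that of Mllt10. Dnajb11, for ERdj3, went from 8.22 ± 0.242 to 18.2 ± 0.859 (1.14, SE 0.06, adjusted p = 8.52e-08). Dnajc25 and Dnajb9, the latter for ERdj4, had smaller values of 0.75 and 0.49 that depended on the scaling: the first was not called on the deposited scale (-0.05) and the second was lower there (-0.34). Dnajc10, which encodes a J protein with disulfide reductase activity, had 0.00 (SE 0.08) and was lower on the deposited scale at -0.83.

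The paralogs Dnajb12 and Dnajb14, both encoding J proteins of the ER membrane, differed. Dnajb12 stood at 16.7, 16.4, 17.3 and 18.04 in input and at 18.7, 17.4, 16.6 and 15.2 in HA IP, with overlapping groups (-0.01, SE 0.08, or -0.84 on the deposited scale, where it was lower). Dnajb14 (chr3:137867675-137916563) stood at 10.2, 10.2, 11.3 and 11.6 in input and at 2.98, 2.54, 2.76 and 2.24 in HA IP. The Dnajb14 groups were far apart (-2.01, SE 0.10, adjusted p = 4.49e-08), and its log2 ratio lay 1.90 to 2.08 below that of Dnajb12 in every animal. Dnajc16, for a J protein of the ER, was lower as well (-0.65, SE 0.09, adjusted p = 5.21e-05).

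Promoters of the ER members were searched for the ER stress element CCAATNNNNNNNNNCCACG on both strands, a sequence bound by the stress factor ATF6 together with NF-Y. It was present for 3 of the 11 listed ER members with a RefSeq promoter, for no other member, and for 0.137% of all genes in the table. The 3 genes were Dnajc3, Hsp90b1 and Hspa5, which also had the 3 largest log2 fold changes among the 12 listed ER members. This is a description of letters and not evidence that the sites were used. The motif is named for the ER stress response, so finding it in ER chaperone genes was no independent result. Its overlap with the largest changes rests on these 3 genes and was not tested. The stretches are shown for that overlap, 5′ to 3′ on the strand of the gene with each match in capitals. They run from 85 to 27 bases before the start for Hspa5 (chr2:34772005-34772063, plus strand), from 232 to 69 for Hsp90b1 (chr10:86705513-86705676, minus strand) and from 125 to 67 for Dnajc3 (chr14:118937807-118937865, plus strand). Hsp90b1 holds 2 matches, the second of them in reverse orientation.
Hspa5: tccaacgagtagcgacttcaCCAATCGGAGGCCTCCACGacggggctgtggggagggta
Hsp90b1: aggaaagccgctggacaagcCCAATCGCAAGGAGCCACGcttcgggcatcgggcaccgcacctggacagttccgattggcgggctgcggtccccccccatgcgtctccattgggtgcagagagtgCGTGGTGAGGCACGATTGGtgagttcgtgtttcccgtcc
Dnajc3: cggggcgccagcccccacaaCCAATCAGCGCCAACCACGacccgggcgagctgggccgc

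Of the 5 members listed as mitochondrial, a list that may not be complete, 4 were higher and 1 lower. On the deposited scale 2 were higher and 2 lower. The shares over all genes tested were 41.8% higher and 41.4% lower, or 23.3% and 61.6% on the deposited scale. Hspa9 encodes mortalin, the Hsp70 that pulls proteins into the matrix and folds them there. It stood at 45.2, 44.2, 48.4 and 45.9 in input and at 292, 308, 339 and 264 in HA IP, a 6.51-fold difference with no overlap (2.70, SE 0.09, adjusted p = 2.04e-09). Dnaja3, the matrix J protein Tid1, went from 9.95 ± 0.190 to 21.2 ± 1.87 (1.08, SE 0.08, adjusted p = 4.07e-07). Dnajc19 and Dnajc15 encode related J proteins of the import motor at the inner membrane, and they went opposite ways after scaling. Dnajc19 stood at 3.25, 3.67, 2.61 and 3.03 in input and at 5.02, 5.52, 4.04 and 5.14 in HA IP (0.63, SE 0.13, adjusted p = 0.0013), and was not called on the deposited scale (-0.17). Dnajc15 stood at 68.4, 82.2, 60.3 and 55.3 in input and at 42.1, 57.8, 47.0 and 37.5 in HA IP (-0.53, SE 0.15, adjusted p = 0.00898). Its groups overlapped, since HA IP of animal 580 lay above the input of animal 595, but within each animal HA IP was lower. The log2 ratio of Dnajc19 exceeded that of Dnajc15 by 0.96 to 1.31 in the 4 animals. The span of Dnajc19 overlaps that of Fxr1 in RefSeq, so reads of the pair may be mixed. Dnajc11, for a protein of the inner membrane contact sites, had 0.64 (SE 0.07, adjusted p = 1.10e-05) but -0.19 on the deposited scale, where it was lower.

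The cytosolic Hsp90 genes differed from each other. Hsp90aa1, the stress-responsive form, stood at 277, 252, 246 and 263 in input and at 264, 260.1, 269.7 and 249 in HA IP. The groups overlapped and the log2 fold change was 0.01 (SE 0.08, adjusted p = 0.937), or -0.82 on the deposited scale, where it was lower. Hsp90ab1, the constitutive form, stood at 427, 396, 412 and 441 in input and at 791, 755, 858 and 648 in HA IP. Its groups did not overlap (0.86, SE 0.12, adjusted p = 7.17e-05), and on the deposited scale it was not called (0.03). Whatever the scaling, the log2 ratio of Hsp90ab1 exceeded that of Hsp90aa1 within each animal, by 0.63 to 0.96.

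Of 39 tested DnaJ genes, 21 (53.8%) were higher, 13 (33.3%) lower and 5 not called. The shares of all genes tested were 41.8% higher and 41.4% lower. The median log2 fold change of the DnaJ genes was 0.41. On the deposited scale 11 (28.2%) were higher and 24 (61.5%) lower, near the 23.3% and 61.6% of all genes tested. Several of the A-type and B-type J proteins of the cytosol moved little after scaling. Dnaja1 and Dnaja2, the main A-type partners of Hsc70, had 0.37 (SE 0.07) and 0.41 (SE 0.07), and were lower on the deposited scale at -0.45 and -0.41. Dnaja4 was not called (0.13, SE 0.09; -0.69 and lower on the deposited scale). Dnajb6 and Dnajb4 had -0.16 (SE 0.08, adjusted p = 0.0722) and -0.20 (SE 0.09, adjusted p = 0.0572), and both were lower on the deposited scale, at -0.98 and -1.02. With the animal number as a replicate block Dnajb4 passed (adjusted p = 0.0321).

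Larger differences in the cytosolic set were seen for 3 B-type genes. Dnajb1, the main stress-responsive Hsp40, stood at 27.2, 28.5, 18.3 and 24.1 in input and at 12.3, 11.7, 11.8 and 9.46 in HA IP (-1.10, SE 0.14, adjusted p = 4.53e-05). The spread was in the inputs, where animal 581 was lowest, and the groups did not overlap. Dnajb5 stood at 58.8, 55.5, 60.04 and 45.00 in input and at 26.2, 26.0, 33.3 and 26.3 in HA IP (-0.97, SE 0.11, adjusted p = 2.33e-05). Dnajb2, which encodes HSJ1, a J protein with ubiquitin-interacting motifs first studied in neurons, went the other way. It stood at 6.16, 5.76, 5.88 and 5.60 in input and at 16.6, 17.1, 17.1 and 14.9 in HA IP (1.47, SE 0.07, adjusted p = 3.41e-08).

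The 3 listed J proteins of vesicles and endosomes were all lower, against 41.4% of all genes tested. They were lower on the deposited scale too, against 61.6% of all genes tested. Dnajc6 (chr4:101496648-101642799) encodes auxilin, which recruits Hsc70 to strip the clathrin coat from vesicles and is mostly found in neurons. It stood at 12.7, 12.1, 14.6 and 13.7 in input and at 0.662, 0.807, 0.677 and 1.16 in HA IP. It was thus 14.7-fold lower in HA IP, the largest fall of any member (-3.88, SE 0.16, adjusted p = 1.01e-08), and the HA IP library of animal 595 was the highest of the 4. Gak, the broadly expressed relative of auxilin, stood at 6.03, 6.15, 6.88 and 6.15 in input and at 6.65, 6.07, 5.67 and 5.97 in HA IP. Gak was not called (-0.05, SE 0.08, adjusted p = 0.600), and its log2 ratio lay 3.42 to 4.21 above that of Dnajc6 in every animal. On the deposited scale Gak was lower, at -0.86. Dnajc5, which encodes the cysteine string protein of synaptic vesicles, stood at 16.5, 16.2, 18.5 and 17.4 in input and at 9.41, 9.75, 9.005 and 8.37 in HA IP (-0.90, SE 0.07, adjusted p = 1.54e-06). The fall of Dnajc5 was far smaller than that of Dnajc6 or of the neuronal markers. Dnajc13, for the endosomal protein RME-8, had -0.53 (SE 0.08, adjusted p = 1.64e-04).

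**Figure D3:**
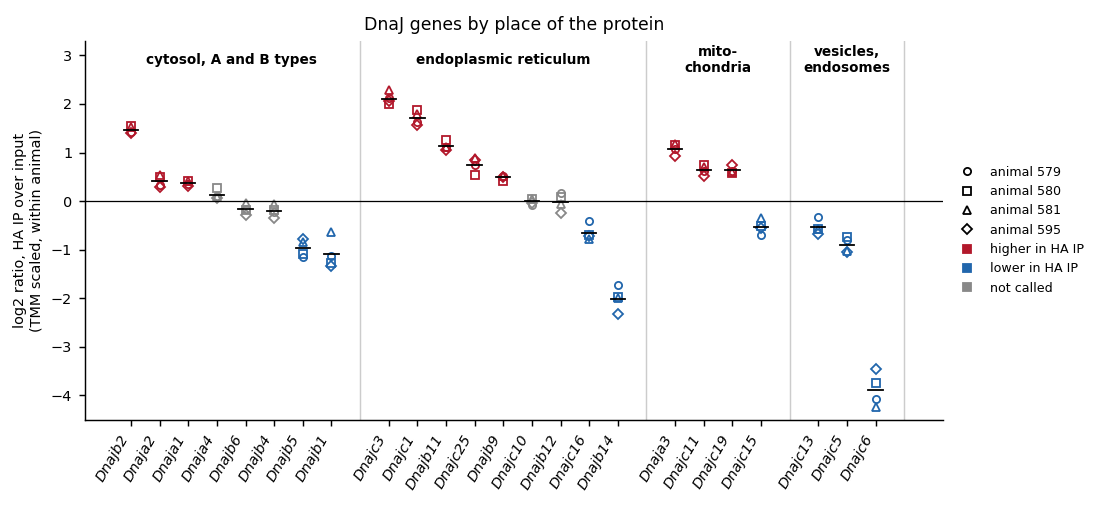
Log2 ratio of HA IP to input within each animal (symbols) for DnaJ genes grouped by the place of the protein, with the limma log2 fold change as a line and colour for the call after scaling. The 3 genes of vesicles and endosomes all lie below 0, down to Dnajc6 at -3.88, while the ER genes run from Dnajb14 at -2.01 to Dnajc3 at 2.11.

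Several other C-type genes were among the leading DnaJ changes. Dnajc24, needed for the diphthamide modification of a translation factor, stood at 3.20, 3.10, 2.69 and 2.97 in input and at 13.5, 15.6, 12.4 and 11.2 in HA IP (2.09, SE 0.11, adjusted p = 5.27e-08). Dnajc17 went from 5.61 ± 0.485 to 21.8 ± 2.34 (1.94, SE 0.10, adjusted p = 3.20e-08), and its RefSeq span overlaps those of Gm14137 and Zfyve19. Dnajc9, a histone chaperone, went from 10.6 ± 0.561 to 40.4 ± 4.85 (1.92, SE 0.09, adjusted p = 2.33e-08). These 3 changes were as large as that of BiP, and in none did the groups overlap. Dnajc7, which links Hsp70 and Hsp90, had 1.29 (SE 0.07, adjusted p = 6.72e-08), but its RefSeq span shares 9058 bases with that of Cnp. Dnajb3 had 1.30 (SE 0.16, adjusted p = 3.04e-05) on only 38 to 93 fragments per library, and lies wholly inside the spans of 8 Ugt1a genes. Both values are uncertain where the counting did not use strand, which the sources used here do not say. Dnajc8, a nuclear J protein, was higher by 1.02 on the log2 scale (SE 0.08, adjusted p = 1.31e-06).

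On the falling side, Dnajc27 (chr12:4082569-4124140), which joins a J domain to a Rab-like GTPase, stood at 26.7, 27.4, 28.3 and 26.4 in input and at 6.46, 5.59, 6.44 and 5.59 in HA IP (-2.16, SE 0.07, adjusted p = 3.03e-09). The spread within each Dnajc27 group was small beside the 4.47-fold difference. Dnajc21, a factor of ribosome assembly, stood at 17.2, 18.7, 11.96 and 19.1 in input and at 7.63, 7.44, 8.41 and 9.95 in HA IP (-0.98, SE 0.16, adjusted p = 1.95e-04). The other C-type genes called lower were Dnajc12, Dnajc14 and Dnajc30, at -0.57, -0.33 and -0.25, and Dnajc12 varied most, from -0.80 to -0.16 in single animals. Dnajc30, whose RefSeq span shares 754 bases with that of Bud23, lost its call without the HA IP library of animal 579, 581 or 595 (adjusted p 0.0517, 0.0749 and 0.0922). Dnajc28, Dnajc4 and Dnajc18 had 0.68, 0.45 and 0.43; on the deposited scale the first was not called (-0.11) and the others were lower (-0.38 and -0.40). Dnajc18 lost its call without animal 579 (adjusted p = 0.0529), and Dnajc4 without animal 581, animal 595 or the input library of 1 of these animals (adjusted p 0.0595 to 0.0819).

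All 7 tested subunits of CCT within the symbol rule were higher in HA IP (median log2 fold change 1.14). The share of all genes tested was 41.8%, or 23.3% on the deposited scale. Without the scaling factors 4 of the 7 subunits, Cct3, Cct2, Cct7 and Cct8, were higher. The others were not called there (Cct5 at 0.19, Cct4 at 0.15 and Cct6a at -0.08). Cct3 stood at 36.1, 34.2, 33.9 and 32.6 in input and at 128, 131, 139 and 102 in HA IP (1.86, SE 0.10, adjusted p = 5.08e-08). Cct2 stood at 50.3, 44.4, 47.3 and 48.6 in input and at 136, 143, 161 and 133 in HA IP (1.58, SE 0.08, adjusted p = 3.69e-08). Cct7 and Cct8 followed with 1.46 (SE 0.09) and 1.14 (SE 0.10), and Cct5 and Cct4 with 1.02 (SE 0.11) and 0.98 (SE 0.13). Cct6a was the least changed, at 56.9, 50.7, 54.3 and 54.6 in input and 84.97, 90.8, 105 and 84.7 in HA IP (0.75, SE 0.08, adjusted p = 1.52e-05). No subunit had overlapping groups.

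The subunits occur in equal numbers in the CCT ring, yet their ratios of HA IP to input were not equal. Tcp1, which encodes the first subunit and is not matched by the symbol rule, had 0.52 (SE 0.09, adjusted p = 4.28e-04) and -0.31 on the deposited scale, where it was lower. Ranked by the log2 ratio within an animal, Cct3 had rank 1, Cct2 rank 2, Cct7 rank 3, Cct6a rank 7 and Tcp1 rank 8 in all 4 animals. Only Cct4, Cct5 and Cct8 changed places, between the ranks 4 and 6. Cct3 exceeded Cct6a by 1.01 to 1.24 on the log2 scale, and the spread from Cct3 to Tcp1 was 1.28 to 1.46. Both sets of differences are free of the scaling. On the FPKM scale, over fitted lengths of 1758 to 2440 bases, the 7 subunits had mean levels of 34.2 (Cct3) to 58.8 (Cct5) in input and of 79.1 (Cct4) to 143 (Cct2) in HA IP. The animals also differed in a common way: of the 4 HA IP libraries, that of animal 581 was highest and that of animal 595 lowest for all 7 subunits. Their summed level was 914 in animal 581, 825 in 580, 771 in 579 and 681 in 595, against 322 to 347 in the inputs. Among the inputs, that of animal 579 was highest for all 7. The order in HA IP was partly shared by other families. There the HA IP library of animal 595 was lowest for 20 of 39 DnaJ, 2 of 3 Hsp90 and 3 of 13 Hsp70 genes. That of animal 581 was highest for 10 of 39 DnaJ, 2 of 3 Hsp90 and 4 of 13 Hsp70 genes. The HA IP library of animal 595 was also the least deep. Whether depth played a part was not tested.

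**Figure D4:**
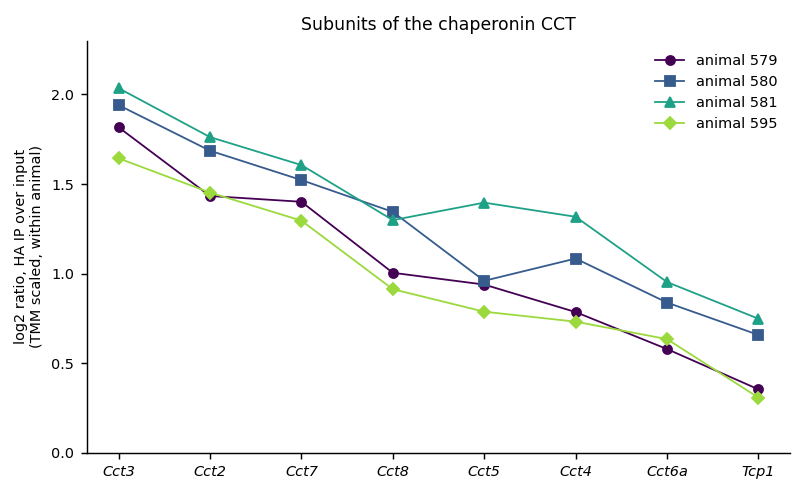
Log2 ratio of HA IP to input within each animal for the 7 tested CCT genes of the rule and Tcp1, 1 line per animal, after TMM scaling. Every line ends lower at Tcp1 than it starts at Cct3, by 1.28 to 1.46, and the lines of animals 581 and 580 run above those of 579 and 595.

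The 5 members not tested had few fragments. Cct6b had 0 to 22 per library, Dnajb13 had 3 to 11 and Dnajb7 had 0 to 19. Dnajb8 and Dnajc22 had at most 1 fragment in any library.

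Genes that work with these families but carry other names were followed in lists. The counts of these lists stand against 41.8% higher and 41.4% lower for all genes tested, or 23.3% and 61.6% on the deposited scale. Of 13 genes of nucleotide exchange and Hsp70 regulation, 8 were higher and 3 lower (median 0.39). Without the scaling factors 3 (23.1%) were higher and 9 (69.2%) lower, near the shares of all genes. Bag3, a co-chaperone of selective autophagy, led the list. It stood at 2.47, 2.171, 3.002 and 1.99 in input and at 36.4, 32.7, 63.6 and 29.6 in HA IP (3.97, SE 0.23, adjusted p = 9.13e-08). Sil1, the exchange factor of BiP, stood at 7.24, 6.39, 6.44 and 7.37 in input and at 70.9, 79.96, 77.3 and 72.7 in HA IP (3.44, SE 0.07, adjusted p = 2.93e-10). In single animals the log2 ratio of Sil1 was 3.28 to 3.62, above the 1.71 to 2.01 of Hspa5 itself. The largest fall of the list was Bag4 at -1.78 (SE 0.08).

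Of 14 Hsp90 co-chaperone genes, 11 were higher and 2 lower (4 and 5 on the deposited scale), with Fkbp4 at 1.86 (SE 0.07) and Chordc1 at -0.89 (SE 0.13) at the ends. Of 10 genes for Tcp1 and the partners of CCT, 7 were higher and 2 lower (2 and 5 on the deposited scale), from Pfdn4 at -1.43 (SE 0.14) to Txndc9 at 1.28 (SE 0.08). Of 11 genes of protein folding in the ER, 8 were higher and 3 lower (7 and 3 on the deposited scale), from Ero1l at -1.05 (SE 0.08) to the disulfide isomerase gene Pdia4 at 2.39 (SE 0.13). All 4 further mitochondrial chaperone genes were higher (3 on the deposited scale), with the largest rise in Trap1, the Hsp90 of mitochondria, at 2.26 (SE 0.06). Of 6 small heat shock protein genes tested, 3 were higher and 1 lower (3 and 2 on the deposited scale). Hspb8, whose protein works with that of Bag3, had 3.94 (SE 0.19), and Hspb3 had -2.45 (SE 0.34). Of 4 genes of heat shock transcription, 2 were higher and 1 lower, with Hsf1 at 0.45 (SE 0.07) and Hsf4 at -1.95 (SE 0.17); on the deposited scale all 4 were lower, Hsf1 at -0.37. Among J proteins under other names, Sec63, the J protein of ER import, was higher at 1.24 (SE 0.07).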

How the data were processed

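Values are FPKM as deposited by the authors, 1 per gene symbol and library. The unit was read from the values, since neither labels nor headers name it. Per the labels' protocols, 100 ng of RNA per library went through mRNA enrichment into a stranded, paired-end protocol. Per the submitters' processing notes, bcl2fastq 2.17, STAR, HTSeq and build mm10 were used; the sources used here do not give the annotation or the strand setting. Each value times 1 length per gene and 1 total per library gave fragments, and all 142235 values above 0 were whole within 0.001. Genes needed the equivalent of 10 fragments in a library of median size in at least 4 libraries and 15 in all. The test was limma 3.58.1 (R 4.3.3) on log2(FPKM/TMM factor + 0.1) over all 15605 genes, two-sided with Benjamini-Hochberg adjustment, threshold 0.05. Fold changes are on that scale, which understates those of low genes. The TMM factors were computed from the FPKM of tested genes, trimming 0.3 of M-values and 0.05 of A-values at each end. Limma and the recovery of fragments were tested on simulated data. The limma simulation changed a small set of genes, as many up as down, so it could not test the choice of scaling.

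Libraries of 1 animal deviated together (r of deviations from group means 0.22 to 0.40, against at most 0.11 for other pairs), so the numbers pair libraries from the same animal. The main fit did not use this pairing. SD covers the 4 animals of a group, and SE is that of the main limma fit. Alternatives were the deposited scale, median-of-ratios scaling, other pseudocounts and filters, the animal as a replicate block, and leaving out each animal or library. Members and gene lists were chosen with earlier results of these data known. All tested Hsp70, Hsp90 and CCT genes, the 8 largest DnaJ changes each way and every gene whose call depends on the scaling are named, with the ends of each further list (1 of these is not reported here); other members, pairs and genes singled out, such as Dnajb11, Dnaja3 or Gak, were chosen after their values were seen. Promoters and gene spans are from RefSeq, GRCm38.p6, where 54 of 67 members had a promoter. Overlaps of spans are named for some members only. Others, such as Dnajb11, Dnajb14, Dnajc6, Dnajc13 and Dnajc14, also share bases with other genes.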

Additional observations from a re-analysis of the deposited data

Results flagged for a closer look

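In 3 of 124 groups of 4 libraries, 1 library stood far from the others; chance alone flags about 1 in 20 such groups. Dnajb5 stood at 33.3 scaled FPKM in the HA IP library of animal 581, against 26.0 to 26.3 in the other HA IP libraries. Dnajc3 stood at 41.1 in the HA IP library of animal 580, against 46.95 to 47.5 in the others. Hspa1b stood at 1.80 in the HA IP library of animal 595, against 0.776 to 0.894 in the others.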

How the results depend on the processing

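Of the alternatives run, only the deposited scale moved a count of members by more than 1.5 times. There 21 members were higher and 32 lower, in place of 36 and 18. The Hsp90 genes gave 1 higher and 1 lower (main 2 and 0), the DnaJ genes 11 and 24 (main 21 and 13), and 4 CCT genes were higher (main 7). Log2 fold changes that changed sign there were, for genes called higher after scaling, those of Dnaja1 (-0.45), Dnaja2 (-0.41), Dnajc18 (-0.40), Dnajc4 (-0.38), Dnajb9 (-0.34), Dnajc11 (-0.19), Dnajc19 (-0.17), Hspa4 (-0.13), Dnajc28 (-0.11), Cct6a (-0.077) and Dnajc25 (-0.051). For genes not called after scaling they were those of Hsp90aa1 (-0.82), Hspa13 (-0.78), Dnaja4 (-0.69) and Hspa4l (-0.69). By construction, leaving out the factors lowers every ratio by 0.83, up to the pseudocount. Pseudocounts of 0.01 and 1 and the absence of a filter changed no member's call among the 62. Dnajb4 and Dnajb6 passed as lower with median-of-ratios scaling, with a filter of 1 CPM and without any input library or animal. With the replicate block (animals paired), 36 members were higher and 19 lower, Dnajb4 being the addition, and no other call of the 62 changed. Depth limits Dnajb3, Hspa1a, Hspa1b, Hspa1l and Hspa12b, which had under 100 fragments in some libraries.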

Other observations

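In animal 581 several genes outside the symbol rule stood apart from the other animals, most of them in both libraries. Bag3 stood at 63.6 scaled FPKM in its HA IP library, against 29.6 to 36.4 in the others, and at 3.002 in its input, against 1.99 to 2.47. Hspb8 stood at 60.8 in HA IP, against 89.7 to 97.4, and at 3.94 in input, against 5.57 to 6.33, so that its log2 ratio of 3.91 to 3.99 hardly differed between animals. Hspb6 stood at 23.03 in HA IP, against 8.31 to 10.04, and at 3.55 in input, against 1.69 to 1.96. The astrocyte marker Gfap stood at 1404 in HA IP, against 426 to 607, and at 49.9 in input, against 16.01 to 19.9. Hspb1 was highest in the HA IP library of animal 581, at 7.75 against 0.920 to 1.76, but not in its input. These values were picked out after they were seen, and no test was made of them.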
